A study of Mus musculus with 2 samples.

Results

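The genes described here encode proteins that write, copy, remove or read methyl groups on cytosine in DNA, or help to do so. The members are Dnmt1, Dnmt3a, Dnmt3b, Dnmt3l, Tet1, Tet2, Tet3, Uhrf1 and Mbd2. They were taken by gene symbol, and all 9 were found among the 38926 features listed for each library. RNA came from pleuroperitoneal folds (PPFs), the paired embryonic folds that give rise to connective tissue of the diaphragm, of wild type mice (embryonic day 12.5) on the strain background given as mixed, 129s/SvlmJ-C57/BL6J. There was 1 group of 2 libraries, replicates 1 and 2, each made from 2 pooled PPF pairs dissected by hand, and polyadenylated RNA was sequenced with a stranded kit. The series states that the profile served to rank candidate genes from human studies of congenital diaphragmatic defects. The samples analysed here are of 1 stage, tissue and genotype, so levels are described without a test between conditions. The sources used here do not say whether the libraries came from different litters.

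In mammals, methylation falls mainly on cytosines that precede guanine (CpG). DNMT3A and DNMT3B place new marks, DNMT3L is a cofactor of both without catalytic activity of its own, and DNMT1 copies marks onto the new strand after replication, brought there by UHRF1, which binds DNA methylated on one strand only. The TET enzymes oxidise methylcytosine and so start its removal, and MBD2 binds methylated CpG and joins the NuRD deacetylase and remodelling complex.

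Replicate 1 held 26370253 counts in all and replicate 2 held 23255957. All 15 markers of fold mesenchyme and mesothelium and all 10 of skeletal muscle progenitors reached 1 TPM (the count divided by the gene's length and brought to one common library total) in both. So did all 12 leukocyte, all 12 erythroid and all 10 endothelial markers, so reaching 1 TPM does not set the fold and muscle lists apart. The libraries differed in other tissues' markers, counted at an adjusted p under 0.05 in the exact binomial test described below. Of all features tested, 8.7% were higher in replicate 2, 8.52% were lower and 1.15% passed 2-fold in either direction. Of 12 hepatoblast markers 10 were higher in replicate 2, 9 of them past 2-fold, and 1 was lower. Their summed level was 802 TPM in replicate 1 and 1005 in replicate 2. Most of it came from Dlk1, the lower marker (656.7 and 648.8 TPM). Of 10 tested mesonephros, gonad and adrenal markers 7 were lower, 5 of them past 2-fold, and 1 was higher (68.3 and 41.6 TPM). Of 14 neuron and neural crest markers 9 were higher, 5 of them past 2-fold, and none lower (246 and 309 TPM). Values are means ± SD over n = 2 libraries unless stated, and the spread is that between these samples. Intervals and floors cover counting error only. In bulk tissue, fewer cells of a type and less RNA per cell cannot be told apart.

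The sequence before the annotated start sites is shown first for the 3 members with the highest levels and for Dnmt3l, the lowest. These windows differ in the number of CpG, the site on which methylation mainly falls. Sequences are from RefSeq (GRCm38.p6), which had a start window for 8 of the 9 members. They run 5′ to 3′ on the gene's strand, with each CpG in capitals, and leave out exon bases of the gene and all bases after the start. They lie at chr9:20952980-20953229 (minus strand) for Dnmt1, chr17:56303087-56303320 and chr17:56304063-56304312 (plus strand) for Uhrf1, chr12:3806730-3806979 (plus strand) for Dnmt3a and chr10:78042128-78042286 (plus strand) for Dnmt3l.
Dnmt1: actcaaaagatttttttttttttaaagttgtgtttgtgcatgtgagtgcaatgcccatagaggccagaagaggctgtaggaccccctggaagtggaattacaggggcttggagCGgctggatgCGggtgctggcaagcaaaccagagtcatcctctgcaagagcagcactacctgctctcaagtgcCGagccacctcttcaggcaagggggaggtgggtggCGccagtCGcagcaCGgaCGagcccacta
Uhrf1, first start: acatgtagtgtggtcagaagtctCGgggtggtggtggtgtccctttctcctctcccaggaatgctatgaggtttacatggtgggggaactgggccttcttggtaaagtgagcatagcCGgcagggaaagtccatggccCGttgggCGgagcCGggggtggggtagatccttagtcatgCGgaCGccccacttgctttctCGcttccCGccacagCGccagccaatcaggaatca
Uhrf1, second start: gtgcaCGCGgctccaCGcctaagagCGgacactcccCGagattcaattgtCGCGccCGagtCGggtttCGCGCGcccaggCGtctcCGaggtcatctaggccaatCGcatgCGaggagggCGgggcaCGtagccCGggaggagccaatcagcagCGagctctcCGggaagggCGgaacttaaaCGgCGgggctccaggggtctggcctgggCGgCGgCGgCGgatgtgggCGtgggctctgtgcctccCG
Dnmt3a: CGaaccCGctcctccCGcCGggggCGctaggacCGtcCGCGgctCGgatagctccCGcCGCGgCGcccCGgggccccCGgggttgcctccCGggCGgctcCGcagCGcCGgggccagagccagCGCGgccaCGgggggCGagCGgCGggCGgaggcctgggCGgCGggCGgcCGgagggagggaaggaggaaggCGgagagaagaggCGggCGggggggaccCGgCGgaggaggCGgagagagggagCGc
Dnmt3l: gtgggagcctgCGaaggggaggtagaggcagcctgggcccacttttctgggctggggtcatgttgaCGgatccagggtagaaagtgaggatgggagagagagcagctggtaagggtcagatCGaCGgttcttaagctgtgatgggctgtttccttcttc
The stretches hold 7 CpG in 250 bases for Dnmt1, 10 in 234 and 30 in 250 bases for the first and second starts of Uhrf1, 38 in 250 bases for Dnmt3a and 4 in 159 bases for Dnmt3l.

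By deposited TPM, maintenance genes stood highest, an order that depended on the gene length used. Dnmt1 had 9597 counts in replicate 1 and 8182 in replicate 2, levels of 179.4 and 178.6 TPM (mean 179 ± 0.618). Uhrf1 had 5232 and 4371 counts, levels of 145 and 141 TPM (mean 143 ± 2.55). Dnmt1 was above Uhrf1 in both libraries, and the ranges of the genes did not overlap. Among the 13595 protein-coding genes with at least 1 TPM in both libraries, 94.2% lay below Dnmt1 and 92.1% below Uhrf1. Within a library the level of Dnmt1 was 1.24 times that of Uhrf1 in replicate 1 (95% interval 1.20 to 1.28) and 1.26 times in replicate 2 (1.22 to 1.31).

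The de novo methyltransferase genes were far apart from each other. Dnmt3a had 12779 and 11920 counts in replicates 1 and 2, levels of 90.5 and 98.5 TPM (mean 94.5 ± 5.68), which placed it after Uhrf1. Dnmt3b had 457 and 373 counts, levels of 10.5 and 10.05 TPM (mean 10.3 ± 0.353), the lowest of the members that reached 1 TPM. Per base of deposited length, Dnmt3a was 8.58 times as high as Dnmt3b in replicate 1 (95% interval 7.81 to 9.44) and 9.80 times in replicate 2 (8.84 to 10.9). Dnmt3b made up 3.63% ± 0.185 of the summed level of Dnmt1, Dnmt3a and Dnmt3b, while Dnmt1 made up 63.1% ± 1.26 and Dnmt3a 33.3% ± 1.45. These shares depend on the length used: by coding length Dnmt3a made up 69.5% ± 1.40, Dnmt1 28.0% ± 1.22 and Dnmt3b 2.46% ± 0.183. The counts were the same in both cases and were not limited to coding bases.

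Dnmt3l, the cofactor gene best known from germ cells, was at the limit of counting. It had 2 counts in replicate 1 (0.0789 TPM) and 0 in replicate 2, where the floor of 3 counts allows up to 0.138 TPM. It shares 67 exon bases (2.24%) with Aire on the opposite strand, and whether its 2 counts fall on these bases is not known. Of 14 markers of germ and pluripotent cells 3 reached 1 TPM in both libraries. These were Nanos3 (6.30 and 4.52 TPM in replicates 1 and 2), Dnd1 (5.38 and 3.19 TPM) and Ddx4 (1.78 and 1.79 TPM). The summed level of the 14 was 16.1 TPM in replicate 1 and 12.01 in replicate 2, and their median was 0.187 TPM. Dppa3, Dppa4, Dppa5a and Tdgf1 had 0 counts. The pluripotency gene Pou5f1 had 1 and 2 counts, and the germ cell gene Dazl 2 and 3.

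The TET genes formed a graded series led by Tet3. Tet3 had 4186 and 4061 counts in replicates 1 and 2, levels of 44.5 and 50.4 TPM (mean 47.4 ± 4.17). Tet2 had 1324 and 1399 counts, levels of 17.0 and 20.97 TPM (mean 19.0 ± 2.81). Tet1 had 1436 and 1589 counts, levels of 11.5 and 14.9 TPM (mean 13.2 ± 2.37). By deposited length the order Tet3, Tet2, Tet1 was the same in both libraries, with no overlap of the ranges, and each of the 3 was higher in replicate 2. Tet3 made up 59.7% ± 1.77 of the summed level of the 3 genes, Tet2 23.8% ± 0.730 and Tet1 16.5% ± 1.04. With the GENCODE exon union the lower shares turned, to 19.0% ± 0.523 for Tet2 and 23.0% ± 1.38 for Tet1, while Tet3 stood at 58.1% ± 1.91. The summed level of Dnmt1, Dnmt3a and Dnmt3b, 280.5 and 287 TPM in replicates 1 and 2, was 3.84 and 3.33 times that of the TET genes, 73.0 and 86.2 TPM.

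The reader gene Mbd2 had 1045 and 928 counts, levels of 38.3 and 39.7 TPM (mean 39.02 ± 0.990), between Tet3 and Tet2. No neighbours in the order Dnmt1, Uhrf1, Dnmt3a, Tet3, Mbd2, Tet2, Tet1, Dnmt3b and Dnmt3l had overlapping ranges over the 2 libraries. The gaps were smallest between Tet3 and Mbd2 (1.22-fold between the means) and between Dnmt1 and Uhrf1 (1.25-fold). In all, 8 of the 9 members reached 1 TPM in both libraries, against 44.4% of all features and 63.5% of protein-coding genes. The median over the 9 was 39.02 TPM, beside 0.636 TPM over all features and 26.8 TPM over the protein-coding genes at 1 TPM or more.

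**Figure D1:**
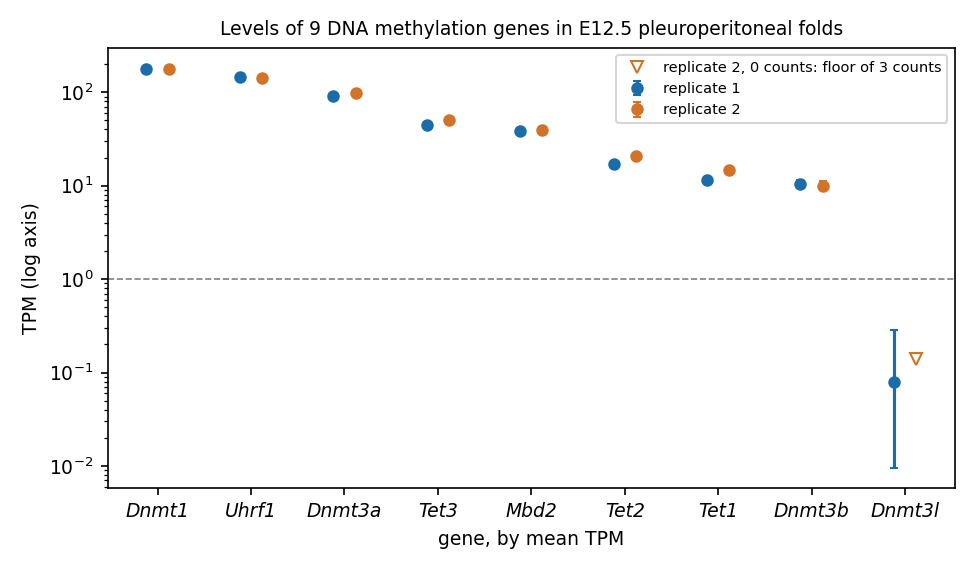
TPM (log axis) of each member in replicate 1 (blue) and replicate 2 (orange), with 95% Poisson intervals of the counts; the open triangle is the floor of 3 counts for a gene with 0 counts, and the dashed line marks 1 TPM. The libraries lie close together for each gene from Dnmt1 at 179 TPM to Dnmt3b at 10.3 TPM, and Dnmt3l is below 1 TPM in both.

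The order depended on the length by which counts were divided, and the level of Dnmt3a moved with it as well. The deposited length of Dnmt3a, 16642 bases, equals the union of all its exons over 18 transcripts in GENCODE M21, whereas its longest transcript has 9685 bases and its longest coding sequence 2724. Divided by the longest transcript, on the same scale, Dnmt3a stood at 162 ± 9.76, beside 170 ± 3.02 for Uhrf1 and 192 ± 0.664 for Dnmt1, and its replicate 2 value (169.3) lay above that of Uhrf1 (167.7). Divided by the coding length, Dnmt3a was first at 577 ± 34.7, followed by Uhrf1 at 260 ± 4.62 and Dnmt1 at 232 ± 0.802. The counts were the same under every length and were not limited to its bases. Under the coding length, reads outside the coding sequence thus stayed in the count, so the value is not a level of coding bases. Mbd2 stood above Tet3 in both libraries by transcript. By coding length it did so in replicate 1 only (99.2 against 91.2), and in replicate 2 (102.8 against 103.3) their ranges overlapped. Tet2 and Tet1 kept their order by transcript and changed places by coding length, 30.3 ± 4.47 and 31.7 ± 5.70, where their ranges overlapped. Dnmt3l was last under every length tried, and Dnmt3b was next to last by mean; with the GENCODE exon union, Tet2 (9.25 and 11.4 in replicates 1 and 2) overlapped Dnmt3b (10.5 and 10.05) and lay below it in replicate 1.

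**Figure D2:**
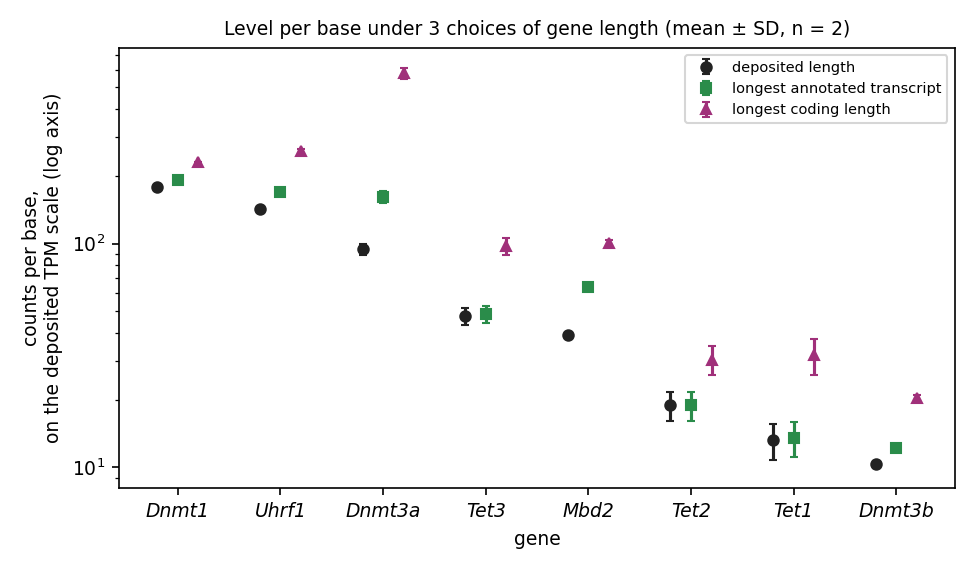
Counts per base on the deposited TPM scale (log axis; mean ± SD of 2 libraries) for the 8 members above 1 TPM, divided by the deposited length, the longest annotated transcript or the longest coding length. Dnmt3a moves from rank 3 by deposited length (94.5) to rank 1 by coding length (577), while Dnmt3b is lowest of the 8 under these 3 lengths. The same counts are divided by each length.

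The files give the genes' spans in coordinates of GRCm38. Dnmt1 lies on chromosome 9 (20907206 to 20952979), Uhrf1 on chromosome 17 (56303321 to 56323486), Dnmt3a on chromosome 12 (from 3806007), Dnmt3b on chromosome 2 (153649450 to 153687730) and Dnmt3l on chromosome 10 (from 78041947). Tet1 is also on chromosome 10 (62804570 to 62880014), Tet2 on chromosome 3 (133463679 to 133544390), Tet3 on chromosome 6 (83362373 to 83441675) and Mbd2 on chromosome 18. For Dnmt3a and Dnmt3l the deposited ends (3838814 and 78045903) fall short of the ends in GENCODE (3914443 and 78063622), although the deposited lengths equal the exon union of the whole gene. Whether reads over the whole gene were counted is not known, and if they were not, the TPM of both genes are too low for the bases counted. For Tet2 and Tet3 the deposited lengths, 9179 and 11086 bases, are below the GENCODE unions of 16870 and 16695. The unions of these genes may therefore hold bases over which reads were not counted. Exon bases shared with other genes were 133 for Dnmt3a (with the antisense gene Dnmt3aos), 67 for Dnmt3l, 43 for Tet2 and 0 for the other 6 members.

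The start windows of 300 bases (250 before to 50 after the start) held 6 to 57 CpG in the 8 members with a window, taking the start nearest the deposited 5′ end. Protein-coding genes at 1 TPM or more in both libraries had a median of 21 CpG in such windows (10114 genes), and the others a median of 3 (5445 genes). Tet2 held the most (57), followed by Dnmt3a (46), Dnmt3b (30), Tet3 (22) and Tet1 (17). Dnmt1 and Uhrf1, the members with the highest deposited TPM, each held 12 at this start and 33 at another annotated start, and a further start of Dnmt1 (20959888) held 2. Dnmt3l held 6 at this start and 4 and 3 at its other starts, so that none of its windows reached the median of genes at 1 TPM. The only window of Tet1, whose start lies 7310 bases from the deposited 5′ end, did not reach it either.

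The E2F factors drive genes of the G1 to S transition, and their consensus was searched in the same windows on both strands as TTTCCCGC, TTTCGCGC, TTTGCCGC and TTTGGCGC, counting overlapping matches separately. None of the 8 windows nearest the deposited 5′ end held a match, against 2.99% of protein-coding genes (465 of 15559). Over all annotated starts, in which 2.84% of 19032 windows held a match, the second start of Uhrf1 shown above held TTTCGCGC once and a start of Dnmt1 (site at 20952623 on chromosome 9) held 2 matches, the first as GCGCGAAA on the reverse strand. Of the S phase and mitosis genes 7 of 19 windows held one (36.8%), and of the partners of maintenance methylation 4 of 14 (28.6%). A match of letters is a description, not a site of binding, and a window without one says nothing about the factor.

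**Figure D3:**
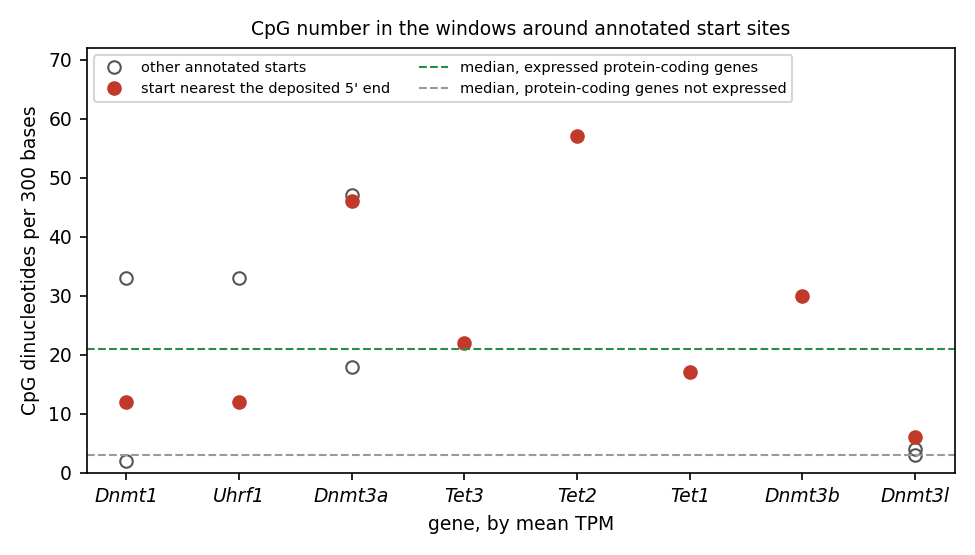
CpG dinucleotides in 300-base windows around annotated start sites of the 8 members with a window, ordered by mean TPM; filled points are the start nearest the deposited 5′ end, open points other starts, and dashed lines the medians of protein-coding genes at 1 TPM or more in both libraries (21) and of the rest (3). Dnmt3l has at most 6 CpG in any window, and Dnmt1 has starts with 2, 12 and 33.

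Between the libraries, the TET genes and Dnmt3a were higher in replicate 2 by at most 1.26-fold, and no member was called lower under the main scaling. An exact binomial test of the counts was run on 19433 features with at least 10 counts over both libraries, with Benjamini-Hochberg adjustment over all of them. It compares these libraries, not conditions. Of the 9 members 8 were tested, and Dnmt3l was not. At an adjusted p under 0.05, 4 of the 8 were higher in replicate 2 and 0 lower, against 8.7% of features higher and 8.52% lower. The share called in either direction was 17.2% of features, and 28.9% of protein-coding genes with at least as many counts as Dnmt3b.

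Tet1 had the largest log2 ratio of replicate 2 to replicate 1, 0.33 (95% interval 0.23 to 0.43, exact binomial adjusted p = 1.4e-08). Tet2 followed at 0.26 (0.15 to 0.37, exact binomial adjusted p = 4.06e-05), then Tet3 at 0.14 (0.078 to 0.20, exact binomial adjusted p = 0.000172) and Dnmt3a at 0.084 (0.048 to 0.12, exact binomial adjusted p = 9.15e-05). The genes without a call were Mbd2 at 0.013, Dnmt1 at -0.046, Uhrf1 at -0.075 and Dnmt3b at -0.11, with exact binomial adjusted p from 0.0623 to 0.986. Scaled by library totals alone, Uhrf1 was called lower as well (exact binomial adjusted p = 0.0491). With the spread that edgeR estimated over both libraries (a coefficient of variation of 7.99%), its exact test called 0 of the 8, with adjusted p of at least 0.993, and 0.751% of features. None of the 8 passed 2-fold by the exact binomial test, against 1.15% of features, while 6 had an unadjusted p under 0.05, against 27.2% of features.

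The 4 called members were the 4 longest. Across expressed protein-coding genes the ratio rose with length: the median log2 ratio was -0.10 in 2632 genes under 2000 bases and 0.11 in 1024 genes of 9000 bases or more, of which 79.6% were higher in replicate 2. Dnmt3a and Tet3 lay within the middle 50% of the long genes (0.023 to 0.21), and Tet2 and Tet1 above it. After a fit of the ratio to gene length and GC content, Tet1 stood at 0.15, Tet2 at 0.17 and Tet3 at 0.046, while Dnmt3a turned to -0.081. Of 10 endothelial markers 5 were higher in replicate 2 and 1 lower, and of 12 leukocyte markers 0 were higher and 2 lower. Over all features tested, 8.7% were higher and 8.52% lower. The endothelial markers summed to 305 and 352 TPM in replicates 1 and 2, and the leukocyte markers to 551 and 505 TPM. The part of these cells in the ratios was not tested.

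**Figure D4:**
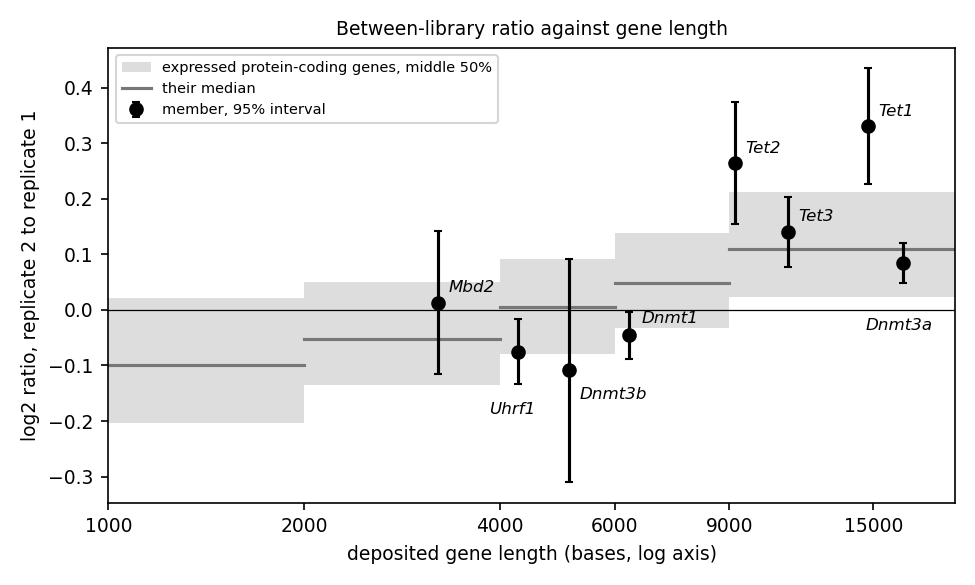
Log2 ratio of replicate 2 to replicate 1 against deposited gene length (log axis) for the 8 tested members (points, 95% binomial intervals), over the median and middle 50% of expressed protein-coding genes in 5 length classes (grey; the shortest class is drawn from the left edge of the axis). Tet1 (0.33) and Tet2 (0.26) lie above the band of genes of 9000 bases or more, and Tet3 and Dnmt3a inside it.

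Other genes of the same protein families were mostly present. Of 11, 10 reached 1 TPM in both libraries. Mbd3, the NuRD subunit that binds methylated CpG poorly in mammals, was highest at 277 ± 0.137 TPM, above Mbd2 in both libraries. The histone methyltransferase gene Setdb1 stood at 76.3 ± 0.587 TPM, Mbd6 at 70.8 ± 3.01, Mbd1 at 62.4 ± 2.60, Uhrf2 at 51.3 ± 0.163 and the mismatch glycosylase gene Mbd4 at 14.5 ± 0.443 TPM. The lowest of the 10 were Setdb2 (9.34 ± 0.642 TPM), Mbd5 (7.70 ± 1.56) and Trdmt1 (7.29 ± 0.209), whose product methylates transfer RNA. Dnmt3c, a paralogue known from the male germ line that the files list under an older symbol, had 0 and 2 counts. Between the libraries Mbd5 was higher in replicate 2 (log2 ratio 0.38, exact binomial adjusted p = 2.03e-06).

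Partners of the maintenance enzymes were all expressed (15 of 15, median 72.3 TPM). The heterochromatin protein gene Cbx5 led at 255 ± 19.8 TPM, followed by Ehmt2, a histone H3 lysine methyltransferase gene, at 157 ± 1.79 TPM and the replicative ligase gene Lig1 at 121 ± 3.27 TPM. The lowest were Cdca7l at 22.0 ± 0.801 and Suv39h2 at 19.0 ± 0.633 TPM. All 24 S phase and mitosis genes were expressed as well (median 139 TPM), from Mcm6 at 285 ± 18.5, Rrm1 at 234 ± 2.47 and Top2a at 226 ± 6.13 TPM to E2f8 at 28.2 ± 2.93 and Cdc6 at 25.6 ± 1.66 TPM, so that Dnmt1 and Uhrf1 lay above the median of this list and below its top genes. Between the libraries 2 of the 24 were higher and 7 lower in replicate 2, against 8.7% and 8.52% of all features tested. Their median log2 ratio was -0.039, beside -0.014 over all features tested.

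Genes for subunits of NuRD, the complex that MBD2 joins, had a median of 174 TPM (13 of 14 expressed). Rbbp7 (313 ± 3.65 TPM), Chd4 (290.2 ± 12.2 TPM) and Mbd3 led, and Mta3 (20.4 ± 1.21 TPM) and Chd5 (1.29 and 0.947 TPM in replicates 1 and 2) were lowest. All 10 zinc finger readers of methylated DNA and their corepressor were expressed (median 56.5 TPM). The corepressor gene Trim28 stood at 588 ± 15.5 TPM, and Zfp57 and Zfp445, whose products keep methylation at imprinted regions, at 124 ± 6.21 and 114 ± 12.5 TPM. Klf4 (12.7 ± 4.68 TPM) and Zbtb38 (4.15 ± 0.477 TPM) were lowest.

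On the TET side, 15 of 18 CXXC proteins and TET partners were expressed (median 82.7 TPM). Ddb1, an adaptor of the CUL4 ubiquitin ligase, led at 846 ± 4.14 TPM, followed by the O-GlcNAc transferase gene Ogt, whose product binds TET proteins, at 164 ± 15.7 TPM and by Hcfc1, a partner of Ogt, at 161 ± 19.9 TPM. Sall4 had 0 and 4 counts and Prdm14 1 and 0. Of the base excision and deamination genes 20 of 21 were expressed (median 35.2 TPM), with Apex1 (252 ± 0.0950 TPM), Parp1 (249.97 ± 0.475 TPM) and Xrcc1 (145 ± 4.30 TPM) highest. For Apex1, 61.7% of exon bases also belong to Pip4p1 or another gene, so its counts are uncertain. Apobec3, a cytidine deaminase gene, was at 5.61 ± 0.760 TPM. Tdg, the glycosylase gene that excises the oxidised bases TET enzymes make, stood at 5.90 ± 0.377 TPM; it was chosen for its role after its value was seen.

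Genes of the substrates were expressed in most cases. Of the methyl donor genes 19 of 22 reached 1 TPM in both libraries (median 34.7 TPM). Mat2a, the S-adenosylmethionine synthetase gene of non-liver tissue, led at 275 ± 14.1 TPM (11.3% of its exon bases lie in other genes), with Shmt2 at 127 ± 6.17 and Ahcyl1 at 100.4 ± 4.99 TPM. The liver genes Mat1a (2 and 0 counts) and Bhmt (1 and 0 counts) were lowest. Of the genes that make 2-oxoglutarate, the TET cosubstrate, or its antagonists, 17 of 18 were expressed (median 97.5 TPM), led by the mitochondrial isocitrate dehydrogenase gene Idh2 (489.8 ± 12.4 TPM), the succinate dehydrogenase gene Sdhd (278 ± 4.17 TPM) and Dlst (220 ± 3.79 TPM). The vitamin C transporter gene Slc23a1 (1.14 ± 0.0133 TPM) and Adhfe1 (1.17 and 0.951 TPM) were lowest.

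Germline genes known to be kept silent by promoter methylation in somatic cells were low. Of 20, 5 reached 1 TPM in both libraries, the median was 0.352 TPM, and Dpep3, Rhox2a and Zfp42 had 0 counts. The highest were Tdrd1 at 5.91 ± 0.0312 TPM, Sycp3 at 4.12 ± 0.0234 TPM and Brdt at 2.28 ± 0.424 TPM, and 52.2% of the exon bases of Sycp3 also belong to Chpt1 or another gene. The start windows of 18 of these genes had a median of 19.5 CpG, above the median of 3 over protein-coding genes that did not reach 1 TPM in both libraries. Methylation itself was not measured in these samples.

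**Figure D5:**
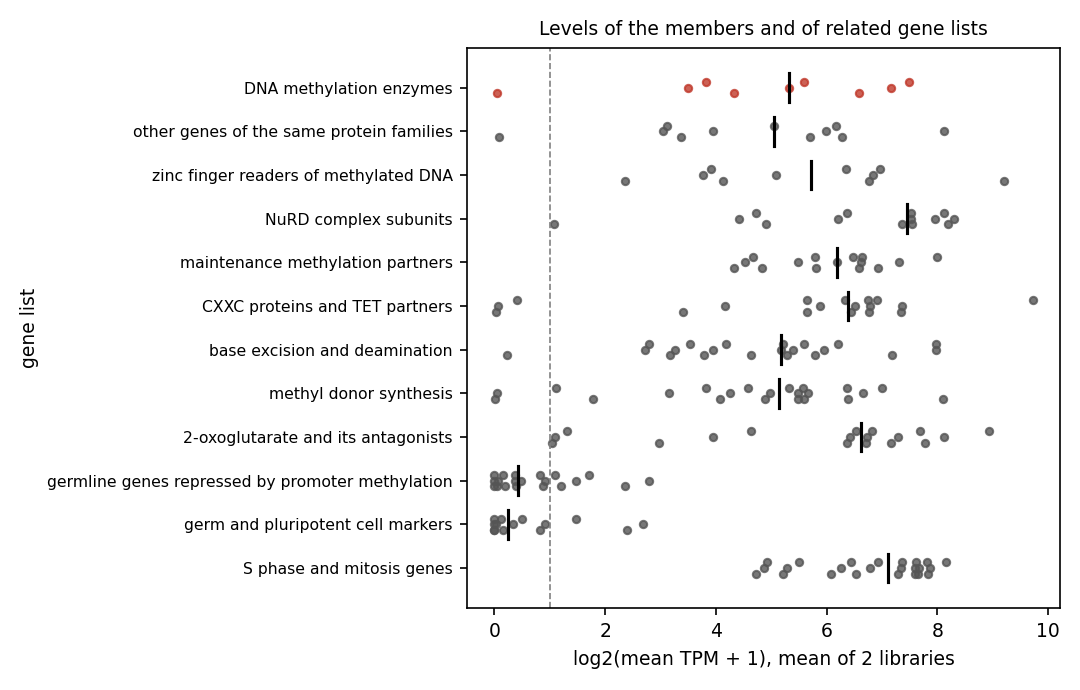
Levels as log2(mean TPM + 1) over 2 libraries for the 9 members (red) and 11 lists of related genes (grey), with each list's median as a black bar; the dashed line marks a mean of 1 TPM. The members' median (39.02 TPM) lies below those of the NuRD subunits (174 TPM) and S phase genes (139 TPM), and the germline lists lie mostly left of the dashed line.

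Among 278 list genes outside the members, the one nearest in level to each member was found by the distance of log2(TPM + 1) over the 2 libraries, which says only that levels were alike. Gata4 (173 and 178 TPM) was nearest to Dnmt1, Xrcc1 (148 and 142 TPM) to Uhrf1, Mymk (91.6 and 102 TPM; listed under its older symbol Tmem8c) to Dnmt3a and Eng (44.04 and 50.2 TPM) to Tet3. Tyms (39.8 and 38.3 TPM) was nearest to Mbd2, Tek (18.4 and 19.5 TPM) to Tet2, Ahcy (11.01 and 15.3 TPM) to Tet1 and Neil3 (10.6 and 10.5 TPM) to Dnmt3b.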

How the data were processed

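Per the submitters' processing notes, STAR 2.4.0a, SAMtools 1.3 and featureCounts were used and the build mm9 was named. The deposited spans were compared with GENCODE M21 (GRCm38): of 35656 shared symbols, 77.4% had the span of the gene or of one of its transcripts, so positions are given as GRCm38. Whether counting used strand is not given there. The authors deposited a raw count, a gene length and a TPM value per gene, the TPM being count per base scaled to a fixed sum. Here, replicates were compared by log2 ratios from counts plus 0.5 scaled by TMM factors (edgeR 4.0.16), with Clopper-Pearson 95% intervals and an exact two-sided binomial test. That test treats counting error as the only noise. It was tried on simulated data that held the same noise only, so the trial cannot show how it behaves with other spread between libraries. A gene was called different at adjusted p under 0.05, and 2-fold where stated. Alternatives were DESeq2 1.42.0 size factors, library totals, filters, edgeR's exact test, other gene lengths and single replicates. List symbols absent from the files were matched by RefSeq synonyms or position. The text names all members and family genes, and in each related list the 3 highest and 2 lowest by mean TPM and genes past 2-fold. Markers of other tissues are given as counts and sums only, apart from Dlk1. Some list genes are not reported here. Tdg, and list genes named for their 0 or low counts, were chosen after their values were seen. Members and lists were chosen with earlier results of these data known.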

Additional observations from a re-analysis of the deposited data

How the results depend on the processing

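The 8 members at 1 TPM or more in both libraries remained 8 at 0.5, 5 and 10 TPM and in either library alone. The median member level, 39.02 TPM, was 43.6 TPM without features under 200 bp and 46.8 TPM over protein-coding genes only, which raises all members by a common factor per library, and lay between 38.3 and 39.7 TPM with 1 replicate left out. Of the 9 members, 7 held their place in the order with the longest transcript, 4 without length correction, 3 with the coding length and 5 with the GENCODE exon union, and all 9 did with either replicate left out. The other lengths divided unchanged counts, so that counts and length need not cover the same bases. The ratio of Dnmt1 to Uhrf1 turned to 0.895 with the coding length. That of Dnmt1 to Dnmt3a turned from 1.90 to 0.719 without length correction and 0.403 with the coding length, and that of Tet2 to Tet1 from 1.44 to 0.901, 0.957 and 0.826 without length correction, with the coding length and with the exon union. The ratio of Dnmt3a to Dnmt3b ranged from 9.19 to 30.0 over the lengths. The coding length, the exon union, the correction for length and GC, and the list counts in single replicates were added after the data were seen. Without a fold limit 4 members were called between the libraries, and 0 at 2-fold under each scaling and filter. The median log2 ratio of the 8 tested members, 0.049, was 0.053 with DESeq2 size factors and 0.046 with library totals, and turned to -0.00098 after correction for length and GC, where Dnmt3a turned to -0.081. With library totals Uhrf1 was also called lower (log2 ratio -0.078, exact binomial adjusted p = 0.0491). No paired analysis was possible because the labels give a single group. Precision is limited by 2 libraries, and for Dnmt3l and the germline genes by counts near the floor.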

Other observations

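Among the genes of methylcytosine removal, Neil2, which encodes a DNA glycosylase of base excision repair, stood apart between the libraries. It had 45 counts in replicate 1 and 188 in replicate 2, levels of 2.75 and 13.4 TPM. Its log2 ratio was 2.23 (95% interval 1.77 to 2.75, exact binomial adjusted p = 5.86e-24, and adjusted p = 1.05e-12 by edgeR's exact test), and its exons share 0 bases with other annotated genes. It was the only 1 of the 20 tested genes of its list to pass 2-fold, against 1.15% of all features tested. Its glycosylase relative Neil3 had levels of 10.6 and 10.5 TPM. With 1 library on each side, the difference has no replicate check.

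Of the germline genes, Slc25a31, an ADP/ATP carrier gene of the testis, had 24 counts in replicate 1 and 6 in replicate 2 (log2 ratio -1.73, 95% interval -3.40 to -0.49, exact binomial adjusted p = 0.0296, and adjusted p = 0.378 by edgeR's exact test). Among the germ cell markers, Nanos3 stood at 6.30 and 4.52 TPM and Dnd1 at 5.38 and 3.19 TPM in replicates 1 and 2, followed by Ddx4 at 1.78 and 1.79 TPM. Dnd1 was lower in replicate 2 (log2 ratio -0.78, exact binomial adjusted p = 0.00796, and adjusted p = 0.332 by edgeR's exact test), and Nanos3 was not called (exact binomial adjusted p = 0.465).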
